A study of Mus musculus with 23 samples.

Results

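The data described here are the 19 arrays of TM4 cells treated with 5 plasticizers, taken from a series of 23 arrays, and they set MEHP, DINCH and DOM (12 arrays) against BDB and DOS (7 arrays). The arrays were chosen by their labels, and each compound was weighted equally, so that the comparison is the mean of 3 compound means minus the mean of 2 compound means. TM4 is a single immortalized Sertoli cell line from mouse testis, and every culture received 1 compound at a dose of 100 μM, in 1% DMSO, over 48 hr. There were 4 arrays each for MEHP, DINCH, DOM and BDB and 3 arrays for DOS, and the 4 arrays of the 1% DMSO vehicle were left out of the comparisons and are quoted only as a level. MEHP, mono(2-ethylhexyl) phthalate, is the monoester metabolite of the phthalate plasticizer DEHP. DINCH is a commercial diester of cyclohexane dicarboxylic acid. DOM is dioctyl maleate, DOS is dioctyl succinate, the saturated counterpart of DOM, and BDB is 1,4-butanediol dibenzoate. BDB and DOS were chosen for the study as candidate replacements and DOM as a compound predicted to be toxic, on the basis of plasticizing properties and cell viability. The division into 3 and 2 compounds follows those choices and earlier readings of these same arrays, so a difference between the 2 sides is not independent evidence that the division is the right one. The compounds are not a random sample of plasticizers, and with the compound as the unit an exact test of 3 against 2 could not give a p below 0.1. The p-values below therefore measure the spread between arrays of the same compound, which may be partly technical.

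Sertoli cells line the seminiferous tubule and support developing germ cells. In mammalian cells the mevalonate and cholesterol enzymes are transcribed under SREBF2, which is released when membrane sterol is low. PPARα, PPARβ/δ and PPARγ are receptors for fatty acids and for some phthalate monoesters, and with RXR partners they drive genes of fatty acid use. NRF2 drives genes of glutathione and quinone metabolism when electrophiles or oxidants are present, and ATF4 drives genes of amino acid supply and stress when translation initiation is restrained.

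The promoters of called list members that hold the recognition letters of these factors are shown first, since those lists are the ones described below. Sequences are from RefSeq on the GRCm38.p6 build, read 5′ to 3′ on the strand of the gene, and end before the transcription start site. The first holds TCACNCCAC, the letters of a sterol regulatory element, the second TGATGNAA, those of an ATF4 and C/EBP element, and the others TGACNNNGC, those of an antioxidant response element. Capitals mark the match, which lies on the opposite strand in all but the first.
Hmgcs1 (chr13:119690154-119690282, + strand): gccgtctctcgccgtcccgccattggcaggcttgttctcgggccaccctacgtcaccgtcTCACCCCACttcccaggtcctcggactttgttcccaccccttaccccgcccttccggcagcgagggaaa
Atf3 (chr1:191183376-191183503, - strand): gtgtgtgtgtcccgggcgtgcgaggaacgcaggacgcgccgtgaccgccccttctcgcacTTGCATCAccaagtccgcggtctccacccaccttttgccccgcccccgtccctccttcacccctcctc
Gclm (chr3:122245363-122245491, + strand): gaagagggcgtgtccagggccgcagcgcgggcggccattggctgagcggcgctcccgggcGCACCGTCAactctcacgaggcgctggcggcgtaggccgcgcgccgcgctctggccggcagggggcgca
Mgst1 (chr6:138140411-138140526, + strand): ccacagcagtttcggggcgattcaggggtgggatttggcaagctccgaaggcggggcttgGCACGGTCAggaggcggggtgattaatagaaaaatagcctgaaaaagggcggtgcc
Both strands were searched from 250 bases before to 50 bases after the start site, and none of the 4 matches shown overlapped another motif of the search. The sterol letters were found in 1 of 16 cholesterol enzymes with a promoter in the table (6.25%) and in 1.44% of all 27025 genes. The ATF4 letters were found in 6 of 20 ATF4 targets (30%) against 4.51% of all genes. The antioxidant letters were found in 11 of 38 NRF2 targets and glutathione transferases (28.9%) against 14.0% of all genes, but also in 8 of 20 ATF4 targets (40%) and 4 of 16 cholesterol enzymes (25%), so they did not mark out the NRF2 list. Of the called genes whose 12 arrays lay above all 7, 24 had a promoter in the table, and 0 held the sterol letters, 0 the ATF4 letters and 5 the antioxidant letters. Of those whose 12 arrays lay below all 7, 12 had a promoter in the table, and 0, 1 and 1 held them. The DR1 direct repeat bound by PPAR with RXR was also searched and was found in 0 of 18 PPAR targets and in 13 of all 27025 genes. Letters in a window of this size are a description of sequence and not a binding site.

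Each sample was hybridized to its own 1-colour array. Levels are the log2 processed intensity minus the log2 of the 75th percentile of the same array, so a level of 0 is the 75th percentile and levels of different genes cannot be ranked. That percentile lay between 205 and 351 units of intensity on the 19 arrays, between 43.4% and 52.2% of spots were well above background, and no spot was saturated. The 2 sides overlapped in both measures (percentile 205 to 351 for MEHP, DINCH and DOM and 218 to 290 for BDB and DOS). The extraction software rated 12 of the 19 arrays as in range and marked the others for evaluation. Those marked were DINCH replicates 1 and 2, MEHP replicate 3, DOM replicates 3 and 4, BDB replicate 3 and DOS replicate 3. All were kept here, while the study had excluded a further DOS replicate for high background. Of 16 Sertoli markers, 10 were tested, 0 were called by limma and 4 had an unadjusted p below 0.05. The median difference over these 10 was -0.08, and Gata4, Dmrt1, Inha and Nr5a1 were above background on all 19 arrays. Wt1, Fshr and Cldn11, which also define Sertoli cells, were above background on 0 of the 19 arrays. Of 31 markers of Leydig, peritubular myoid, germ, macrophage, fibroblast and endothelial cells, 14 were tested, and 3 were called: Aif1 was higher, and Cnn1 and Dcn were lower. The summed linear level of the peritubular myoid markers was 114 to 158 on the 12 arrays and 140 to 251 on the 7, with Myh11 above background on 0 arrays. That of the fibroblast markers was 393 to 743 and 478 to 781, with Lum on 0 arrays, and that of the macrophage markers was 3.11 to 4.85 and 3.37 to 4.87, with Adgre1 and Ptprc on 0 arrays. Above background on all 19 arrays were Acta2, Cnn1 and Tagln of the myoid markers and Col1a1, Col1a2, Pdgfra and Dcn of the fibroblast markers. So were Csf1r (macrophage), Cyp17a1 (Leydig), Prm1 (germ cell), and Pecam1 and Kdr (endothelial). Of the 31 markers, 12 were above background on 0 arrays. The part of these markers in the results was not tested.

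A probe was called when the limma test gave a Benjamini-Hochberg adjusted p below 0.05 and a difference of more than 1.5-fold, and a gene when any of its probes was called. Of 12123 tested genes, 504 (4.16%) were called. MEHP, DINCH and DOM gave a higher mean than BDB and DOS for 204 (1.68%) and a lower mean for 300 (2.47%). The median difference of a called probe was 1.66-fold and 86 genes passed 2-fold. In what follows a gene is represented by its brightest probe, and on that basis 459 of 12117 genes were called (3.79%), of which 179 were higher (1.48%) and 280 lower (2.31%). The median difference over all 12117 genes was 0.00.

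The 3 compounds did not contribute equally to this mean. Against the same mean of BDB and DOS, 98 genes were called with MEHP (0.808%; 62 higher, 0.511%, and 36 lower, 0.297%), 948 with DINCH (7.82%; 463 higher, 3.82%, and 485 lower, 4%) and 2583 with DOM (21.3%; 1310 higher, 10.8%, and 1275 lower, 10.5%, with 2 in both directions through different probes). These 3 comparisons share the BDB and DOS arrays. On the brightest probe, to which the counts of list members below refer, 0.768% of genes were called with MEHP (0.487% higher, 0.281% lower), 6.72% with DINCH (3.42% higher, 3.29% lower) and 19.1% with DOM (9.32% higher, 9.76% lower). A direct limma F-test among MEHP, DINCH and DOM called 3331 genes (27.5%), where a call also needed compound means more than 1.5-fold apart. Of the 459 genes called on the brightest probe, 359 also differed among the 3 compounds, and 255 had all 3 compound means on the same side of both the BDB and the DOS mean. A further 48 had 1 compound mean above and another below both. BDB and DOS differed from each other in 126 genes (1.04%; 64 higher with BDB, 0.528%, and 62 lower, 0.511%), and on the brightest probe in 0.883% of genes (0.47% higher, 0.413% lower). Same-numbered arrays of these 2 compounds deviated together from their compound means (correlations 0.23 to 0.40 over 3 pairs), and with the replicate number as a block the count was 200. The count of 126 rested on single arrays: it was 12 without DOS replicate 4, 21 without BDB replicate 2, 36 without BDB replicate 4 and 54 without DOS replicate 3. The count for MEHP was 39 without MEHP replicate 1 and 39 without MEHP replicate 2, 52 without its replicate 3 and 50 without its replicate 4. It was 59 and 58 without BDB replicates 2 and 4, and 54 and 55 without DOS replicates 3 and 4. In the other direction it was 141 without BDB replicate 1, 132 without DOS replicate 1 and 223 with the replicate number as a block.

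A stricter reading asks for no overlap of arrays. In 76 genes (0.627%) every one of the 12 arrays lay above every one of the 7, and in 37 (0.305%) every one lay below. Of these 113, 46 were also called (0.38% of genes), 30 higher and 16 lower, and their mean with DMSO alone lay nearer to BDB and DOS than to the 3 compounds for 43 of the 46. The 10 called genes with the highest and the 10 with the lowest difference are described next. Because non-overlap was the criterion that chose them, their separation is a description. The gap between the sides was very small for some of them. For Arid5a the highest of the 12 arrays read 4.3212 and the lowest of the 7 read 4.3285. For Zfp185 the lowest of the 12 read -3.4477 and the highest of the 7 read -3.4553.

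Lpin1, which encodes the phosphatidate phosphatase lipin 1 of triglyceride synthesis, gave nearly the same difference with each compound. Its level was -0.44, -0.61, -0.67 and -0.44 with MEHP. With DINCH it was -0.28, -1.02, -0.74 and -0.33, and with DOM -0.18, -0.56, -0.64 and -0.38. These 12 values overlapped one another freely. With BDB it was -1.31, -2.05, -2.04 and -1.63, and with DOS -1.36, -1.5 and -1.5, all lower than the lowest of the 12. The difference was 1.08 ± 0.12 (log2, SE; limma adjusted p = 1.83e-05), made up of 1.06 with MEHP, 1.01 with DINCH and 1.16 with DOM, and the 3 compounds did not pass the test of a difference among them (adjusted p = 0.754).

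Aldh1a1, a retinaldehyde dehydrogenase that makes retinoic acid, lay between -0.87 to 0.23 (median -0.17) on the 12 arrays and between -1.72 to -0.89 (median -1.40) on the 7. The difference was 1.04 ± 0.10 (adjusted p = 7.30e-06). Its 3 DOS arrays (-1.0, -0.90 and -0.89) lay above its 4 BDB arrays (-1.72, -1.40, -1.60 and -1.68), and BDB minus DOS was -0.67 ± 0.16, just outside the threshold (adjusted p = 0.0508). The 4 DMSO arrays lay at -1.8, -1.64, -1.66 and -1.77, beside BDB. Aldh1a1 was the 1 gene called of 7 tested in the retinoid list, and Dhrs3, a retinaldehyde reductase, gave -1.56 with MEHP, 0.55 with DINCH and -0.27 with DOM.

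In a second group of genes DOM stood far above MEHP and DINCH. Zfp185, which encodes an actin-associated LIM domain protein, was -0.42, -1.1, -1.5 and 0.06 with DOM and -3.07, -2.87, -2.67 and -3.43 with MEHP. With DINCH it was -3.45, -2.89, -3.22 and -2.64, and on the BDB and DOS arrays -5.90 to -3.46 (median -3.58). The overall difference of 1.66 ± 0.28 (adjusted p = 0.000545) averaged 0.92 with MEHP, 0.87 with DINCH and 3.18 with DOM, and 1 of the 7 BDB and DOS arrays was not above background. Slc43a2, a transporter of branched-chain and other neutral amino acids, gave 1.31 ± 0.12 (adjusted p = 4.15e-06) with the same imbalance, 0.62 with MEHP, 0.58 with DINCH and 2.73 with DOM. Deptor, a protein that binds and restrains the mTOR kinase complexes, gave 1.1 ± 0.09 (adjusted p = 3.42e-06), with 0.77 with MEHP, 0.49 with DINCH and 2.05 with DOM. All 3 passed the test of a difference among MEHP, DINCH and DOM.

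The other 5 genes of the higher set were closer to equal. Dnaaf3, needed for assembly of ciliary dynein arms, gave 1.17 ± 0.21, and 2 of its 7 BDB and DOS arrays were not above background. Oit3 gave 1.02 ± 0.18, Poln, a DNA polymerase, 1.01 ± 0.11, and these 3 genes did not pass the test among the 3 compounds. Mocos, which activates molybdenum enzymes, gave 0.99 ± 0.09, and Dennd3, an exchange factor of Rab proteins, gave 1.01 ± 0.14, and in both DINCH was the highest of the 3 compounds. Dennd3 was above background on 6 of the 7 BDB and DOS arrays. Adjusted p for these 5 genes lay between 4.15e-06 and 0.000884.

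Among the 10 lower genes, Gml, which encodes a GPI-anchored surface protein, showed the largest difference. It lay between -3.54 to -2.33 (median -2.87) on the 12 arrays and between -1.78 to -1.12 (median -1.66) on the 7. The difference was -1.34 ± 0.16 (adjusted p = 5.18e-05), with -1.15 with MEHP, -1.37 with DINCH and -1.5 with DOM, and both of its tested probes were called. Stc2, a secreted stanniocalcin, was 1.47, 1.29, 1.52 and 1.43 with MEHP, 1.23, 1.09, 1.45 and 0.87 with DINCH and 1.04, 0.95, 1.13 and 0.60 with DOM. It was 2.22, 2.18, 2.13 and 2.23 with BDB and 1.84, 1.85 and 1.81 with DOS, a difference of -0.84 ± 0.08 (adjusted p = 5.56e-06). The arrays of each compound lay close together for this gene, and DOS lay between BDB and the 12.

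Prkg2, a cGMP-dependent protein kinase, gave -1.21 ± 0.11 and Arid5a, an RNA-binding regulator of inflammatory transcripts, gave -1.23 ± 0.13, and in both MEHP was the least changed (-0.65 and -0.55). Arid5a was also higher with BDB than with DOS by 0.86 ± 0.20 (adjusted p = 0.0457). The secreted matrix protein Spon2 gave -1.02 ± 0.10 and the secreted Olfml3 -0.81 ± 0.13. Snai2, the repressor of epithelial genes also called Slug, gave -0.76 ± 0.09. Of the host transcripts of small RNAs, Mir17hg gave -1.08 ± 0.19, with 1 of 12 arrays not above background, and Snhg16 gave -0.81 ± 0.11. Snhg16 was among the genes that differed between BDB and DOS (0.95 ± 0.18, adjusted p = 0.0171). The predicted metalloprotease Amz1 gave -0.96 ± 0.12. Over the 20 genes, 13 were called with MEHP alone against BDB and DOS, 17 with DINCH and 20 with DOM, and 11 were not called for a difference among the 3, of which 4 (Aldh1a1, Snai2, Spon2 and Stc2) had an adjusted p under the threshold but means within 1.5-fold. Several of these differences depended on how background was removed. With the model-based normexp correction 8 of the 20 lost their call, being then under 1.5-fold: Gml gave -0.56, Dnaaf3 0.22, Dennd3 0.24, Poln 0.42, Oit3 0.50, Mocos 0.54, Mir17hg -0.56 and Olfml3 -0.54. Zfp185 gave 0.61 and Lpin1 0.70 and were still called. With all BDB arrays left out 6 of the 20 lost their call, and with all DOM arrays left out 1 did.

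**Figure D1:**
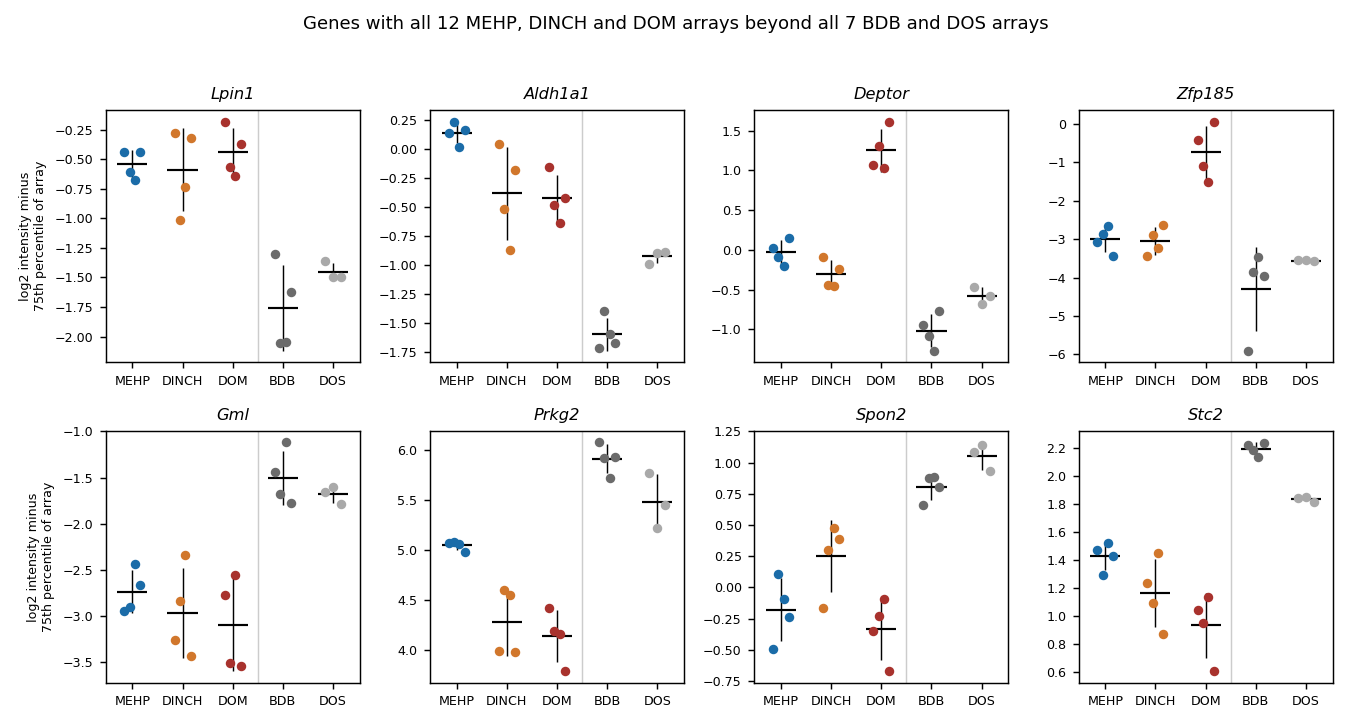
Level of 8 of the 20 genes on each array by compound (vertical axis: log2 intensity minus the 75th percentile of the array; points: arrays; horizontal bars: means; vertical bars: SD). All 12 points of MEHP, DINCH and DOM lie above all 7 points of BDB and DOS in the upper panels and below them in the lower panels, and DOM stands apart for Deptor and Zfp185.

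Of 21 tested enzymes of cholesterol synthesis, 10 were called higher with the 3 compounds and 0 lower. Of the 8 enzymes of the mevalonate arm, which builds isoprenoid units from acetyl-CoA, 5 were called higher and 0 lower, where 1.48% of all genes were called higher. The median difference was 0.69 against 0.00 over all genes, and all 8 members lay above 0 with each of MEHP, DINCH and DOM (medians 0.73, 0.38 and 0.78). Mvd, which decarboxylates mevalonate diphosphate, had the largest difference, 1.14 ± 0.13 (adjusted p = 1.88e-05). Its arrays read 4.55, 4.37, 4.04 and 4.36 with MEHP, 4.36, 4.03, 3.85 and 4.16 with DINCH and 5.16, 5.01, 4.64 and 4.82 with DOM. With BDB they read 3.56, 2.58, 3.10 and 2.88 and with DOS 3.86, 3.51 and 3.35. The highest DOS array thus met the lowest DINCH array, and the 2 sides overlapped by that pair only. Hmgcs1, the HMG-CoA synthase whose promoter is shown above, gave 0.81 ± 0.11, Idi1, the isopentenyl diphosphate isomerase, 0.70 ± 0.13, and Pmvk, a mevalonate kinase acting on the phosphate, 0.70 ± 0.13. Fdps, which makes farnesyl diphosphate, had all 12 arrays above all 7 (7.45 to 7.81 (median 7.63) against 7.0 to 7.38 (median 7.19)) and an adjusted p of 0.000129, but its difference of 0.45 ± 0.06 was under 1.5-fold.

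Of 13 enzymes from squalene to cholesterol, 5 were called higher and 0 lower (median 0.51), namely Hsd17b7 (0.69 ± 0.10), Nsdhl (0.67 ± 0.10), Tm7sf2 (0.62 ± 0.09), Dhcr7 (0.62 ± 0.11) and Sc5d (0.59). Dhcr7, the last step of one branch, was even across compounds (0.66 with MEHP, 0.57 with DINCH and 0.63 with DOM) and its 2 sides did not overlap. Tm7sf2 and Hsd17b7 were not, with 0.00 and -0.19 for DINCH and 1.65 and 1.76 for DOM. Over this list 10 enzymes were called with DOM, 3 with MEHP and 0 with DINCH by limma (6 at an unadjusted p below 0.05). The count of 5 fell to 2 without DOS replicate 4, to 3 without BDB replicate 2 or DINCH replicate 4, and to 1 with all DOM arrays left out. Of 15 tested SREBF targets outside the pathway, all 15 lay above 0 and 4 were called (1 with BDB left out, with 13 above 0, and 2 with DOM left out): Insig1, the sterol-regulated retention protein (0.86 ± 0.11), the cholesterol carrier Stard4 (0.81 ± 0.16), and Elovl6 (0.74 ± 0.12) and Fasn (0.62 ± 0.10) of fatty acid synthesis. For the last 2, DINCH gave -0.04 and -0.16. Srebf2 itself gave 0.26 ± 0.09 (adjusted p = 0.0531).

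BDB and DOS were not alike on these genes. The median of BDB minus DOS was -0.48 over the mevalonate arm and -0.25 from squalene to cholesterol, and Hmgcs1 was called (-0.77 ± 0.18, adjusted p = 0.0453). With the DMSO arrays as a reference level, the mevalonate median was 0.06 for BDB and 0.49 for DOS. With BDB left out, so that the 3 compounds were set against the 3 DOS arrays, 1 enzyme of the mevalonate arm was called with a median of 0.41, and 0 of the later enzymes.

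**Figure D2:**
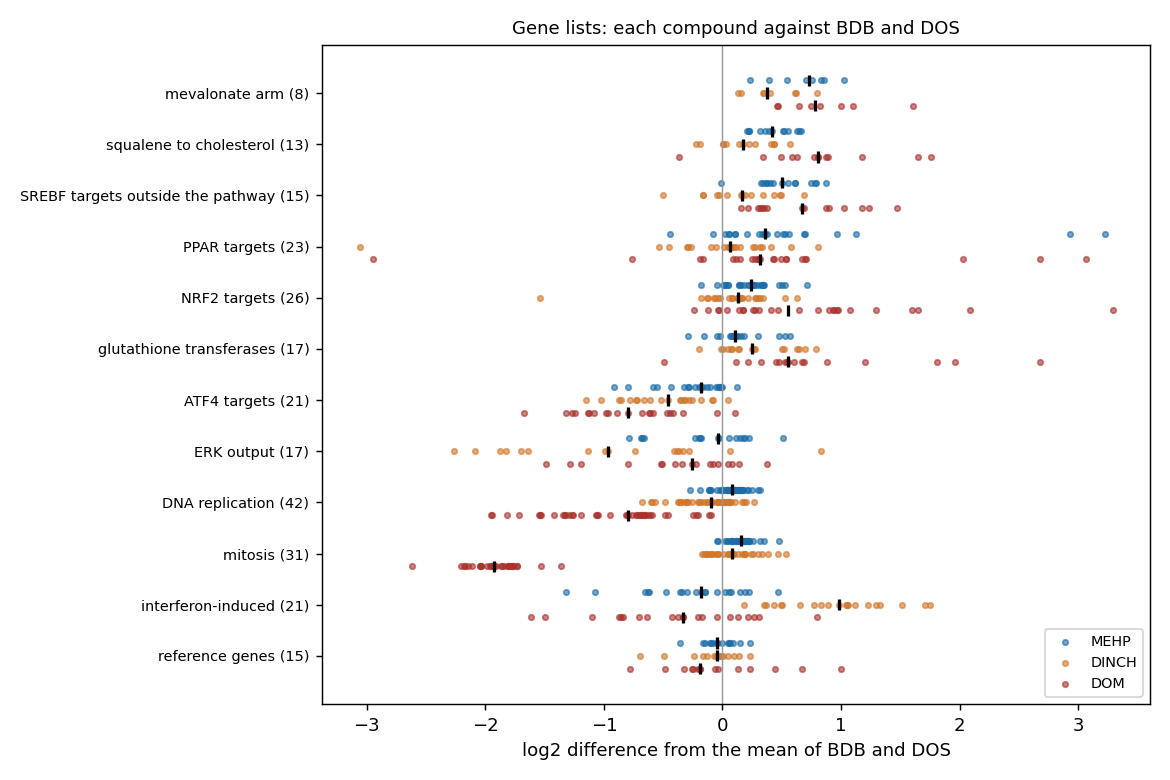
Members of 12 gene lists (number tested in brackets), each point a gene, as the log2 difference of MEHP, DINCH or DOM from the mean of BDB and DOS; black ticks are list medians. The mevalonate arm lies right of 0 for all 3 compounds, while the mitosis list lies at -1.93 for DOM and near 0 for MEHP and DINCH, and the interferon list at 0.98 for DINCH alone.

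Genes of fatty acid use under PPAR control were split by compound. Pdk4, the kinase that turns off pyruvate dehydrogenase, had the largest difference of all genes named here, 2.37 ± 0.16 (adjusted p = 5.64e-07). It read 2.13, 2.18, 2.15 and 2.22 with MEHP and 2.26, 1.76, 1.43 and 2.6 with DOM, but 0.34, -0.62, -0.71 and 0.02 with DINCH. With BDB it read -1.51, -1.82, -1.82 and -1.59 and with DOS -0.26, -0.65 and -0.35. DINCH therefore overlapped DOS, and all 4 BDB arrays lay below both. BDB minus DOS was -1.27 ± 0.25 (adjusted p = 0.022), and the DMSO arrays, at -1.47, -1.47, -1.54 and -1.30, lay beside BDB. Cpt1a, which admits fatty acids to the mitochondrion, gave 1.02 ± 0.09 (adjusted p = 3.55e-06), made up of 1.13 with MEHP, -0.10 with DINCH and 2.03 with DOM. Acadl, a long-chain acyl-CoA dehydrogenase, gave 0.60, and Angptl4 is described below. Fgf21, a secreted hormone, was the only list member called lower, -1.02 ± 0.18, with 0.34 with MEHP, -0.45 with DINCH and -2.95 with DOM. In all, 4 of 23 tested members were called higher and 1 lower (median 0.23), and 10 of the 23 differed among the 3 compounds (24.4% of all genes did on the brightest probe). Of 7 tested PPAR receptors and partners 0 were called by limma and 3 had an unadjusted p below 0.05. With DINCH alone 2 were called higher, Ppargc1a (0.92 ± 0.21) and Rxra (0.79 ± 0.12), named after their values were seen, and 2 were called with all DOM arrays left out. Ppara gave -0.14 ± 0.10, Ppard 0.12 ± 0.05 and Pparg -0.11 ± 0.08.

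Calls among genes of glutathione and quinone metabolism came mostly with DOM. Of 26 NRF2 targets, 5 were called higher and 0 lower (median 0.27), and 13 were called higher with DOM alone, 1 with MEHP and 1 with DINCH. With DINCH 1 was called lower, the cystine transporter Slc7a11 (-1.54 ± 0.22), which was named after its value was seen. Hmox1, heme oxygenase 1, read 7.84, 7.63, 7.23 and 7.78 with DOM, while the other 15 arrays lay between 4.14 and 4.90. Its difference of 1.28 ± 0.11 (adjusted p = 3.20e-06) was thus made up of 0.48 with MEHP, 0.08 with DINCH and 3.29 with DOM. Nqo1, a quinone reductase (0.87 ± 0.11), Pgd of the pentose phosphate pathway (0.81 ± 0.08), Gclm of glutathione synthesis (0.65) and the aldehyde oxidase Aox1 completed the 5, and all differed among the 3 compounds. Aox1 was above background on 10 of the 12 arrays and 3 of the 7, so it was tested through the side on which it was high, and with normexp background correction its difference was 0.25. With DOM left out, 0 NRF2 targets were called higher and 1 lower. Leaving out DOM replicate 1, DINCH replicate 2 or 3, BDB replicate 3 or DOS replicate 3 also gave 1 NRF2 target called lower.

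Glutathione transferases, which conjugate electrophiles to glutathione, had 4 of 17 tested members called higher and 0 lower (median 0.25). Gsta4 (1.30 ± 0.16) and Gstm1 (1.02 ± 0.11) were led by DOM, with 2.68 and 1.96, and Mgst1 likewise (0.30 with MEHP, 0.14 with DINCH and 1.81 with DOM). Gsto2 was the exception. It read 1.36, 1.47, 1.18 and 1.2 with MEHP, 1.85, 1.36, 1.34 and 1.55 with DINCH and 1.67, 1.28, 0.93 and 1.74 with DOM, all above the 7 BDB and DOS arrays (0.57 to 0.85 (median 0.77)). Its difference was 0.68 ± 0.11 (adjusted p = 0.000292), and it did not pass the test among the 3 compounds (adjusted p = 0.478). Mt1, a zinc-binding metallothionein, was called (0.81 ± 0.17) and was led by DINCH (1.68).

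Among stress genes under ATF4 the calls were all in the lower direction. Of 21 tested members, 0 were called higher and 7 lower, where 2.31% of all genes were called lower, and all 21 lay below 0 (median -0.41). The medians were -0.18 with MEHP, -0.46 with DINCH and -0.80 with DOM. Against BDB and DOS 2 were called lower with MEHP, 9 with DINCH and 15 with DOM. Atf3, a stress-induced transcription factor whose promoter is shown above, gave -1.12 ± 0.12 (adjusted p = 1.64e-05). Ppp1r15a, which restores translation initiation, gave -1.06 ± 0.14 (adjusted p = 7.17e-05) and was even across compounds (-0.92 with MEHP, -1.02 with DINCH and -1.25 with DOM). It read 6.12, 6.55, 5.67 and 6.68 with BDB and 5.0, 4.91 and 5.11 with DOS, against 4.08 to 5.04 (median 4.59) on the 12, so the DOS arrays lay at the upper edge of the 12 and the BDB arrays above it. Both genes were called between BDB and DOS (1.21 ± 0.19 and 1.25 ± 0.22). Trib3, a pseudokinase induced by ATF4, gave -0.81 ± 0.11, Slc7a5, a large amino acid transporter, -0.74, Ddit3, also called CHOP, -0.69, and Psph of serine synthesis -0.61, and Stc2 was given above. Atf4 itself gave -0.33 and was not called. Of 20 cytosolic aminoacyl-tRNA synthetases, 0 were called by limma (median -0.24), 16 had an unadjusted p below 0.05 and 18 lay below 0.

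Among genes induced by ERK signalling the calls were in the lower direction and came mostly with DINCH. Of 17 tested, 0 were called higher and 7 lower (median -0.46). The medians were -0.03 with MEHP, -0.96 with DINCH and -0.26 with DOM, and 10 were called lower with DINCH alone against BDB and DOS, 3 with DOM and 0 with MEHP. Etv5, an ETS transcription factor, read 0.53, 2.27, 2.39 and 1.36 with DINCH and 2.33, 2.25, 2.19 and 1.8 with DOM. With MEHP it read 3.30, 3.30, 2.98 and 2.98, in the range of BDB and DOS (2.99 to 3.61 (median 3.44)), and its difference was -1.03 ± 0.19 (adjusted p = 0.00103). The feedback inhibitors Spry4 (-1.04 ± 0.27) and Spry1 (-1.0 ± 0.26), the immediate early genes Fos (-0.84 ± 0.17) and Egr1 (-0.83), Etv4 (-0.72) and Fosl1 (-0.66) were the others called. Spry4 was above background on 10 of the 12 arrays and Fos on 9. With DINCH left out, 3 were called lower and the median of the list was -0.15.

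Calls among cell division genes were in the lower direction and came with DOM. Of 31 mitosis genes 12 were called lower and 0 higher (median -0.56), and of 42 DNA replication genes 8 were called lower and 0 higher (median -0.35). With DOM all 31 mitosis genes were called lower against BDB and DOS (9.76% of all genes were) at a median of -1.93. With MEHP and DINCH 0 were called by limma (2 and 4 at an unadjusted p below 0.05), and the medians were 0.16 and 0.08. Aurka, a mitotic kinase, showed the pattern. It read 3.32, 2.72, 3.22 and 2.06 with DOM, 5.40, 4.88, 5.0 and 5.01 with MEHP and 4.85, 4.93, 4.72 and 4.95 with DINCH. BDB and DOS lay at 4.52 to 5.44 (median 5.07), so that only DOM stood apart, and the mean difference of -0.74 ± 0.14 (adjusted p = 0.00141) averaged DOM with 2 compounds that lay near BDB and DOS. The same held for Cdk1 (-0.04 with MEHP, -0.16 with DINCH and -1.91 with DOM) and Ndc80 of the kinetochore (0.02 with MEHP, -0.10 with DINCH and -2.03 with DOM). Among replication genes Rrm2, the ribonucleotide reductase subunit, gave 0.09 with MEHP, -0.48 with DINCH and -1.94 with DOM, and the replication initiator Mcm10 -0.02 with MEHP, -0.61 with DINCH and -1.54 with DOM. With DOM left out, 0 mitosis and 0 replication genes were called and the medians were 0.13 and 0.01. The count of 12 was 6 without DOM replicate 4 and 7 without DOS replicate 1, and that of 8 was 5 without DOS replicate 1. The mitosis count was 4 with normexp background correction and 0 with each array weighted equally in a fit of 2 groups. With odd and even array positions weighted equally, which also gives DOM as much weight as MEHP and DINCH together, it was 30. In the same 3 settings the replication count was 5, 0 and 15. The mitosis median of -0.56 lay near the 1.5-fold threshold, which is 0.58 in log2. In cultures of this kind fewer dividing cells and less RNA per cell cannot be told apart.

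In the other lists the numbers called were small, where 2.31% of all genes were called lower and 1.48% higher. The share called lower was above that of all genes in the folate, p53, YAP and SRF, and matrix lists. Of 17 folate and one-carbon genes, 2 were called lower, the serine hydroxymethyltransferases Shmt2 (-0.68 ± 0.07) and Shmt1 (-0.62 ± 0.07), both with DOM lowest. Of 13 p53 targets, Trp53inp1 was called higher (0.67 ± 0.11) and Gdf15 (-0.70 ± 0.13) and Plk2 (-0.64 ± 0.19) lower. Of 15 YAP and SRF output genes, 3 were called lower, Ccn2 (-0.76 ± 0.20), Cnn1 (-0.68 ± 0.11) and Ankrd1 (-0.61 ± 0.12), with DOM lowest in each. Of 26 matrix genes, Mgp, Fbn1 (-0.71 ± 0.22) and Dcn (-0.65 ± 0.19) were called lower, while 10 were called higher with DOM alone and 6 lower with DINCH alone. The matrix count fell to 1 without DOS replicate 3 and the folate count to 1 without DOS replicate 1. The lower p53 count fell to 1 without DOS replicate 1 or 4, MEHP replicate 3 or BDB replicate 4, while the YAP and SRF count was 5 without BDB replicate 2 or DOS replicate 4. Of 5 aryl hydrocarbon receptor targets 1 was called, Nqo1. Of 15 common reference genes 0 were called by limma and 5 had an unadjusted p below 0.05 (median -0.07), and Hprt gave -0.19 ± 0.08.

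For some genes the mean over MEHP, DINCH and DOM hid opposite differences. Angptl4, a secreted inhibitor of lipoprotein lipase, read 6.89, 7.27, 7.21 and 7.18 with MEHP and 6.74, 7.07, 6.91 and 6.80 with DOM. With DINCH it read 0.00, 1.70, 1.85 and 1.03, below every BDB array (3.01, 4.30, 4.22 and 3.94) and every DOS array (4.21, 4.91 and 4.51). The differences were 2.93 with MEHP, -3.06 with DINCH and 2.68 with DOM, and the mean of 0.85 ± 0.22 passed the test (adjusted p = 0.011) although 1 of the 3 compounds lay on the other side. Without MEHP or without DOM that mean was -0.19 and -0.06. Mgp, the matrix Gla inhibitor of calcification, differed from this in MEHP. It gave -1.81 with MEHP, -3.97 with DINCH and 2.68 with DOM, and its DOM arrays (3.13, 3.67, 3.51 and 4.30) lay above and its DINCH arrays (-3.75, -2.90, -2.59 and -2.75) below all 7.

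Among interferon-induced genes 2 of 21 were called higher, Stat2, the transcription factor of the interferon response (0.77 ± 0.08), and Ifit3 (0.61 ± 0.08), and 0 were called lower. The count was 1 when replicate 1 of MEHP, DINCH or DOS was left out. Stat2 had all 12 arrays above all 7 and lay above BDB and DOS with each compound (0.47 with MEHP, 1.05 with DINCH and 0.80 with DOM). Ifit3 did not, with -0.15 with MEHP, 1.71 with DINCH and 0.26 with DOM, and only its DINCH arrays all lay above the 7. The list as a whole was not even, with a median of 0.98 and 14 called higher with DINCH, -0.18 with MEHP, and -0.33 and 7 called lower with DOM. Outside this list, but chosen for compound means on both sides of BDB and DOS, Oasl1, an interferon-induced regulator of translation, read 3.43, 3.23, 2.91 and 3.25 with DINCH and -0.09, -0.62, -0.24 and -0.66 with DOM. MEHP (2.26, 1.8, 1.90 and 2.34) lay between DINCH and the BDB and DOS arrays (0.99 to 1.62 (median 1.29)). Its differences were 0.80 with MEHP, 1.92 with DINCH and -1.69 with DOM. Rtp4 gave -0.20 with MEHP, 1.39 with DINCH and -0.93 with DOM and Phf11a -0.24 with MEHP, 1.29 with DINCH and -2.01 with DOM. Phf11a was above background on 8 of the 12 arrays and 6 of the 7. By the same rule, the surface receptor Slamf9 gave -0.14 with MEHP, 0.56 with DINCH and -3.68 with DOM, the cell cycle phosphatase Cdc25b 0.25 with MEHP, 0.54 with DINCH and -1.36 with DOM, and the caveolar protein Cavin4 -0.31 with MEHP, -1.1 with DINCH and 0.73 with DOM. Erfe, which encodes erythroferrone, gave 0.12 with MEHP, -0.11 with DINCH and -1.74 with DOM. The 7 genes from Oasl1 on were also chosen for the smallest p in the F-test among the 3 compounds. Their adjusted p in that test, from 2.87e-09 to 9.81e-09, therefore only describes the choice. Stat2, not chosen by that test, had an adjusted p of 0.0017 in it but compound means within 1.5-fold of each other.

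**Figure D3:**
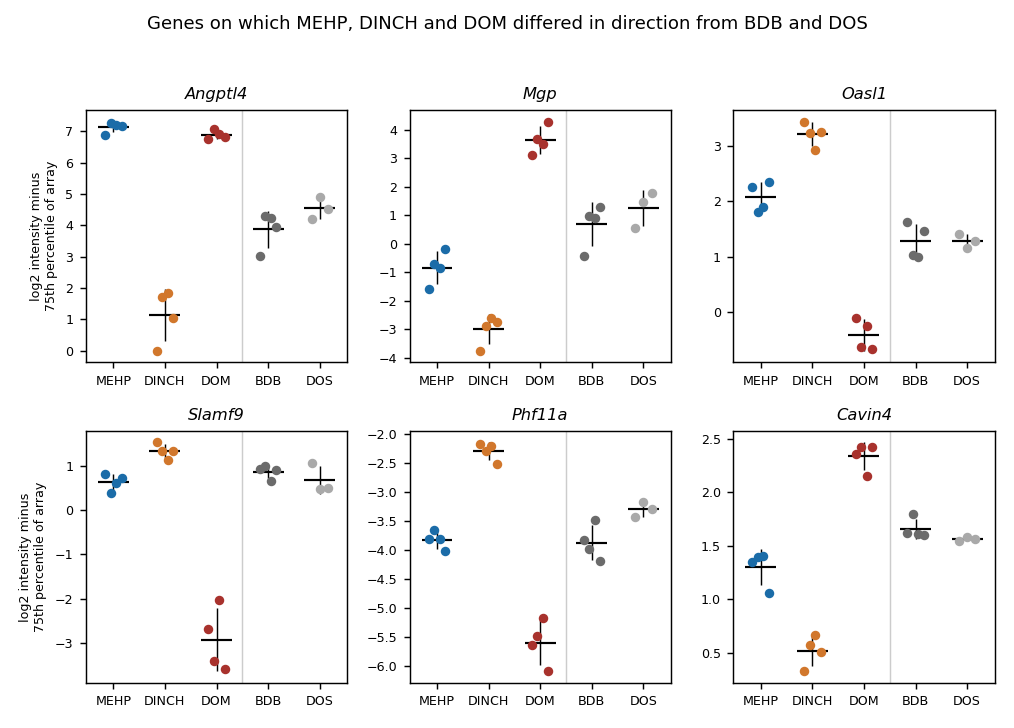
Level of 6 genes on each array by compound (vertical axis: log2 intensity minus the 75th percentile of the array; points: arrays; horizontal bars: means; vertical bars: SD). MEHP, DINCH and DOM lie on both sides of BDB and DOS; for Angptl4 the DINCH arrays lie at 0.00 to 1.85 and the MEHP arrays at 6.89 to 7.27.

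The position of an array on its slide differed between compounds. MEHP, DINCH and BDB lay at odd positions and DOM and DOS at even ones, so 2 comparisons can be made within a kind of position, and they share no array. DOM minus DOS, which also contrasts a maleate with the matching succinate at the same dose, called 1931 genes (15.9%; 7.3% higher, 8.64% lower). The mean of MEHP and DINCH minus BDB called 624 (5.15%; 2.67% higher, 2.47% lower). On the brightest probe, 183 genes were called in both in the same direction (87 higher, 96 lower) and 37 in both in opposite directions. In DOM minus DOS 14.3% of genes were called on that probe (6.3% higher, 7.98% lower), and at odd positions 4.61% (2.37% higher, 2.24% lower). The mean of the 2 comparisons, in which odd and even positions weigh equally, called 863 genes (7.12%; 337 higher, 2.78%, and 526 lower, 4.34%), and on the brightest probe 779 (6.43%; 292 higher, 2.41%, and 487 lower, 4.02%). That mean also gives DOM as much weight as MEHP and DINCH together, so position and the weight of DOM cannot be told apart in it. The 183 were 10.6% of the 1730 genes called for DOM minus DOS and 32.8% of the 558 called at odd positions. Of those 1730 genes, 67.2% had the same sign in the other comparison, and of the 558, 73.8% did, where 60.4% of all 12117 genes did. Both comparisons are parts of the contrast that chose the 20 non-overlapping genes, so that 14 of these were called in both is a description. Lpin1 gave 1.01 ± 0.19 and 1.19 ± 0.15, Gml -1.41 ± 0.26 and -1.35 ± 0.21, and Stc2 -0.90 ± 0.13 and -0.90 ± 0.10, DOM minus DOS first. The other 6 (Aldh1a1, Dennd3, Amz1, Mir17hg, Snai2 and Snhg16) were called at odd positions only. For Aldh1a1 the values were 0.50 ± 0.16 and 1.48 ± 0.13. Of the mevalonate enzymes 3 were called higher at even positions and 5 at odd ones, while of the mitosis genes 31 and 0 were called lower.

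**Figure D4:**
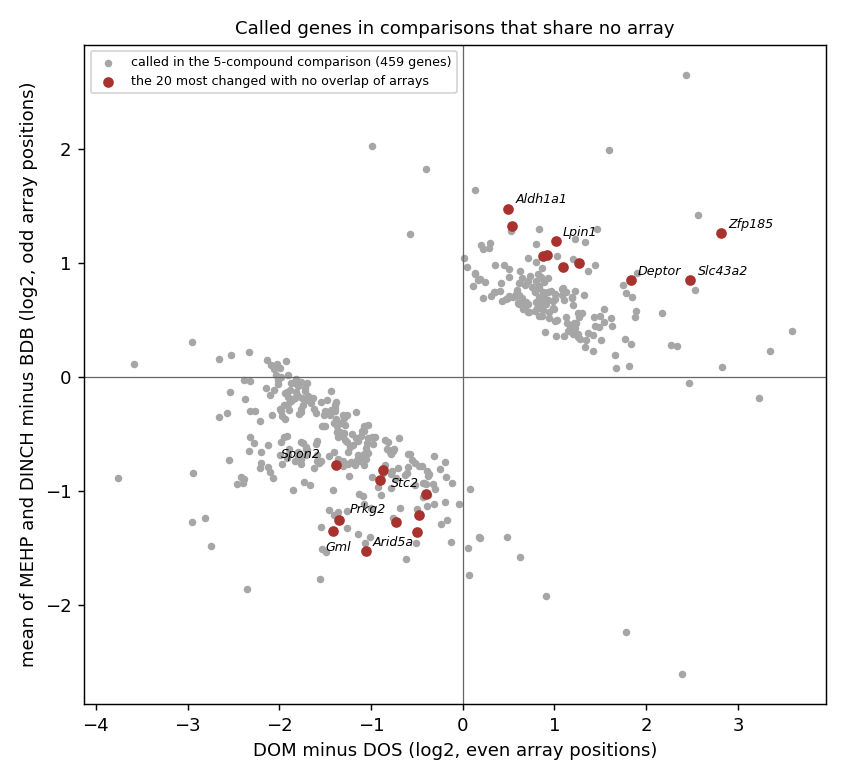
The 459 called genes by their difference in DOM minus DOS (horizontal axis, log2) and in the mean of MEHP and DINCH minus BDB (vertical axis, log2); red points are the 20 genes described above. Both axes enter the comparison that chose the genes, so the placing in the lower left and upper right is a description; many genes lower with DOM lie near 0 on the vertical axis.

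Leaving out a whole compound moved the count of called genes more than leaving out an array. Without MEHP 1002 genes were called, without DINCH 798 and without DOM 337. Without DOS, with the 4 BDB arrays as the only reference, 1038 were called, and without BDB, with the 3 DOS arrays as the only reference, 146. Leaving out 1 array at a time gave 452 to 587. When compound was treated as a random block, with a single consensus correlation of 0.395 shared by all probes, limma called 0 genes. That fit took its residual degrees of freedom from the arrays, so the 5 compounds were not its units. At an unadjusted p below 0.05 that fit held 2211 of 24827 probes (8.91%), and its smallest adjusted p was 0.179. Those p-values may be too small for genes that vary between compounds more than the shared correlation allows. Without BDB 3 ATF4 targets, 0 ERK-induced genes, 2 mitosis genes and 0 replication genes were called lower by limma. Every call given above thus applies to these 5 compounds and not to plasticizers of either kind in general.

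**Figure D5:**
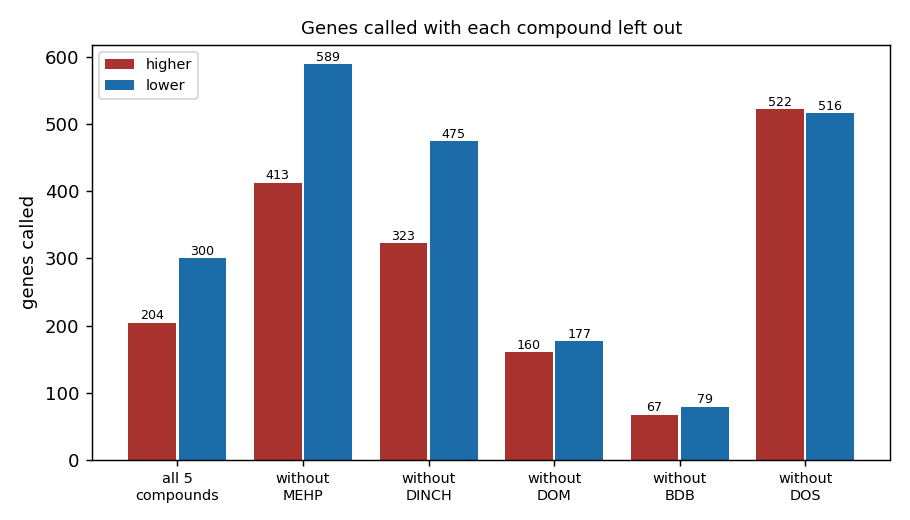
Genes called higher (red) and lower (blue) in MEHP, DINCH and DOM against BDB and DOS with all compounds and with all arrays of 1 compound left out (vertical axis: number of genes). The counts run from 67 higher and 79 lower without BDB to 522 and 516 without DOS.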

How the data were processed

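The authors scanned the 1-colour Agilent mouse arrays and deposited, per array, processed intensity values that their extraction software had background-subtracted and detrended, and a table of log2 values shifted to the 75th percentile and centred per probe. The intensities were used here. Their log2 (floor of 1) was set relative to the 75th percentile of each array, and replicate spots were averaged after removal of outlier spots (55681 probes, of which 26582 were named through RefSeq accessions and 29099 were not). Such scaling gives levels relative to the rest of the array, not per cell. Testing was limited to the 24827 probes that, in at least 1 compound, exceeded background and reached the 20th percentile on all arrays. One mean per compound was fitted over the 19 arrays with limma 3.58.1 (R 4.3.3), with Benjamini-Hochberg adjustment across these probes. Plots used matplotlib 3.10.9 (Python 3.11.15).

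The genes named are the 10 called genes highest and the 10 lowest with no overlap between the sides, up to 4 called members of each list, genes the study names, and the 8 with the smallest F-test p that have compound means on both sides of BDB and DOS. Other list members were named after their values were seen, to complete a count. The compounds, lists and settings were chosen with earlier results of these data known. On simulated arrays with the spread within compounds, of 200 changed probes among 24827, 92.5% were recovered at 1 log2 unit, 98.5% at 1.5 and 100% at 2, with 6 false calls. The simulation gave MEHP, DINCH and DOM the same shift and each array independent noise. It held no variation between compounds and none shared by replicate or slide. It thus checks the fit and gives no recovery or false call rate for genes that differ among the compounds. Precision is limited by the number of arrays, which carry no read depth. Replicate numbers are shared between compounds, but for 4 of 10 pairs of compounds same-numbered arrays did not all deviate together (correlation above 0.1), so the numbers were not taken as pairs for the main comparison. Some pairing was present: on the same slide the median correlation was 0.32 for same-numbered arrays and 0.07 for others. On different slides it was 0.10 and -0.12. With the replicate number as a block, 560 genes were called between the 2 sides and 223 with MEHP. For BDB with DOS all 3 correlations were above 0.1 (0.23 to 0.40), and the blocked count is given beside that result. Alternatives covered normalization, background correction, the filter on dim probes, outlier spots, probe choice, blocks for slide, replicate number and compound, weights, a variance trend, the DMSO arrays in the fit, the log2 values of the authors, and leaving out each array and each compound. Some list members are counted but not reported by name here.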

Additional observations from a re-analysis of the deposited data

Results flagged for a closer look

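Some named genes had 1 array far from the other 3 of its compound, with a gap to the nearest that exceeded Dixon's 95% critical value for 4 samples. This held for 31 of 465 sets of 4 arrays (93 named genes in MEHP, DINCH, DOM, BDB and DMSO), where chance gives about 1 in 20, and DOS with 3 arrays was not tested. Levels are log2 relative to the 75th percentile of the array. The gap exceeded 1 log2 unit for Ppard in DMSO replicate 4 (-2.22 against 2.12 to 2.36), Zfp185 in DMSO replicate 1 (-5.57 against -3.56 to -3.44), Spry1 in DINCH replicate 1 (-2.38 against -0.41 to -0.13), Plk2 in MEHP replicate 3 (1.02 against 2.72 to 2.84), Ccn2 in DOM replicate 1 (5.07 against 3.66 to 3.84), Mgp in DMSO replicate 1 (-0.70 against 0.42 to 0.49) and Fbn1 in BDB replicate 1 (0.12 against 1.24 to 1.44). Smaller gaps in MEHP were those of Aox1 replicate 2 (-3.38), Idi1 replicate 1 (6.24), Nqo1 replicate 1 (0.60), Cavin4 replicate 4 (1.06) and Hmox1 replicate 3 (4.60). Smaller gaps in DINCH were those of Trib3 replicate 3 (7.0), Elovl6 replicate 3 (2.09) and Snhg16 replicate 1 (3.67). Smaller gaps in DOM were those of Ppara replicate 1 (-0.56). Smaller gaps in BDB were those of Dennd3 replicate 2 (-4.71), Dhrs3 replicate 1 (-0.35), Aox1 replicate 2 (-3.72), Mras replicate 3 (1.51), Gins1 replicate 1 (2.02), Cavin4 replicate 2 (1.8), Mcm10 replicate 2 (2.58) and Ppara replicate 2 (0.15). Smaller gaps in DMSO were those of Stard4 replicate 4 (2.76), Dhrs3 replicate 1 (0.53), Aox1 replicate 3 (-4.04), Elovl6 replicate 1 (2.6), Fgf21 replicate 3 (-0.14), Hprt replicate 1 (5.62) and Hmox1 replicate 4 (4.52). The DMSO arrays entered no comparison between compounds in the report.

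The effects of MEHP, DINCH and DOM against BDB and DOS differed by the limma F-test, with all arrays of 1 compound above and all arrays of another below all 7 BDB and DOS arrays, for 8 named genes. The range of the 3 compound means was 6.65 for Mgp, 5.99 for Angptl4, 4.24 for Slamf9, 3.61 for Oasl1, 3.29 for Phf11a, 2.32 for Rtp4, 1.90 for Cdc25b and 1.82 for Cavin4 (log2). Among the 93 named genes, 64 passed that F-test, where 24.4% of all genes did on the brightest probe. The named genes include 8 chosen by that F-test and others chosen for large differences, so the 64 describe that choice.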

How the results depend on the processing

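The named genes were recomputed under 39 alternatives, 19 of them leaving out 1 array (38 for the 8 genes not above background on every array, and 85 genes under all 39). Of 74 called genes, 3 changed sign under any of these, Angptl4, Mgp and Slamf9, and in those cases a whole compound had been left out. Sign changes were: with array positions balanced, Cavin4 0.013, Oasl1 -0.16, Rtp4 -0.17; without MEHP, Angptl4 -0.19, Dhrs3 0.14; without DINCH, Mgp 0.43, Cavin4 0.21, Oasl1 -0.44, Rtp4 -0.56. Without DOM they were Angptl4 -0.065, Egfr 0.026, Cdc25b 0.40, Erfe 0.0051, Phf11a 0.52, Slamf9 0.21, and without DOS Dhrs3 0.10. Of the 74 calls, 0 were lost with quantile normalization, the authors' log2 table, a variance trend, the replicate block or all 23 arrays in the fit, 23 with normexp background correction, 32 with each array weighted equally in a fit of 2 groups and 74 with compound as a random block. Without BDB 46 were lost, without DOM 32 and with the other compounds left out 4 or 5. Called genes that changed sign are not in these counts, and they too were then under 1.5-fold. The cause of these differences was not tested.

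With normexp correction 214 genes were called between the 2 sides (79 higher, 135 lower), 452 with DINCH, 1609 with DOM, 81 between BDB and DOS, 1240 for DOM minus DOS and 299 for MEHP and DINCH minus BDB. Without a filter on dim probes, which tests more probes, 31 genes were called with MEHP and 7 between BDB and DOS. With the replicate number as a block, MEHP had 223 and BDB against DOS 200, and the block moved no other count by over 1.5 times. Balancing array positions, which also raises the weight of DOM, gave 863 (337 higher, 526 lower). Weighting arrays equally gave 273 (125 lower). Compound as a random block gave 0, with 0 higher and 0 lower (consensus correlation 0.395, unadjusted p below 0.05 for 1571 genes). Without MEHP there were 1002 (413 higher, 589 lower), without DINCH 798 (323, 475), without DOM 177 lower, without BDB 146 (67, 79) and without DOS 1038 (522, 516). Leaving out 1 array gave 452 to 587 genes (187 to 233 higher, 255 to 354 lower), 39 to 141 with MEHP, 684 to 1167 with DINCH, 2390 to 2836 with DOM and 12 to 168 between BDB and DOS. It gave 1647 to 2150 for DOM minus DOS, 457 to 742 for MEHP and DINCH minus BDB and 3119 to 3554 among the 3 compounds. Arrays give no read depth, and of the 93 named genes 8 (Aox1, Dennd3, Dnaaf3, Fos, Mir17hg, Phf11a, Spry4 and Zfp185) were not above background on every array.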
